A study of Homo sapiens with 18 samples.

Results

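Collagens, laminins and integrins form the scaffold on which epithelial cells rest and the receptors by which they hold it. The genes considered here are the 80 of 19775 measured genes whose array probe sets carry exactly 1 gene symbol and whose symbol names a collagen alpha chain, a laminin chain, an integrin chain or fibronectin. They comprise 43 collagens, 10 laminins, 26 integrin symbols and fibronectin (FN1). They were chosen by name, by a rule set with earlier results of these data known. Where a gene had several such probe sets, the one with the highest mean log2 signal over all 18 arrays was used, so that 80 of 215 probe sets stand for the genes and 135 remain for comparison. One of the 26 integrin symbols, ITGA9-AS1, is an antisense RNA to ITGA9 and codes for no integrin. LAMA3 and COL17A1 were not analysed here, and ITGB6 fell outside the rule because its probe sets carry 2 symbols.

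The cells were A549, a line derived from a human lung carcinoma and used as a model of type II alveolar epithelium, grown at the air-liquid interface on transwell membranes. They stayed for 72 h either in an exposure chamber, which received air with 0, 0.1 or 0.5 ppm formaldehyde, or in a parallel reference chamber, which received no formaldehyde in any experiment. This gave 6 groups of 3 arrays: exposure and reference chamber for the experiments at 0 ppm, at 0.1 ppm and at 0.5 ppm, with 9 experiments in all. All groups share the cell line, the culture format and the time, and a single tumour line holds no fibroblasts, endothelium or leukocytes of the lung. Groups are called below by chamber and by the concentration of their experiment, so the reference chamber at 0.5 ppm is the formaldehyde-free partner of the exposure chamber at 0.5 ppm.

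As background, collagen chains assemble as triple helices. Type IV collagens form the sheet-like network of basement membranes, fibrillar collagens form the cables of connective tissue, and fibril-associated and beaded-filament collagens link these structures. Laminins are cross-shaped trimers of 1 alpha, 1 beta and 1 gamma chain that lie against the basal side of epithelia, and integrins are heterodimers of 1 alpha and 1 beta chain that span the cell membrane and join the matrix to the cytoskeleton. Lung epithelial cells are known for type IV collagen, laminins of the alpha 5 and alpha 3 families, and integrins that pair with the beta 1, beta 4 and beta 5 chains.

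The 6 type IV collagen genes lie in 3 head-to-head pairs, each pair transcribed outward from a shared stretch of DNA, and these stretches are shown because the pairs are read as pairs in the results that follow. The sequences are RefSeq's for build GRCh38.p14, and 56 of the 80 genes had an entry in the promoter table used. Each is written 5′ to 3′ on the strand of the second gene named, and ends 1 base before that gene's start. Between the COL4A1 start and the COL4A2 start lie 126 bases (chr13:110307158-110307283), shown whole. Between the starts of COL4A4 and COL4A3 lie 418 bases, and between the start of COL4A5 and the nearer of the 2 listed starts of COL4A6 lie 379. Of these stretches, the 250 bases next to COL4A3 (chr2:227164374-227164623) and next to COL4A5 (chrX:108439588-108439837) are shown. None of the shown bases is part of either listed transcript. Capitals mark a GC box (GGGCGG on either strand) or a CCAAT box (CCAAT on either strand).
COL4A1 and COL4A2: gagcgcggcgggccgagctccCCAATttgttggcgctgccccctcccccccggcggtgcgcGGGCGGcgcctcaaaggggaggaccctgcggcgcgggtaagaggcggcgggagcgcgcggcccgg
COL4A4 and COL4A3: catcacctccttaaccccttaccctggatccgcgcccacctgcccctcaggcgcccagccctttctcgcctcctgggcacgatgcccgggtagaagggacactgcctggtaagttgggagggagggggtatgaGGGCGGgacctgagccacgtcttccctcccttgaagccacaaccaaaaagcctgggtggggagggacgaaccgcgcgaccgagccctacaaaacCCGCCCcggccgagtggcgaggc
COL4A6 and COL4A5: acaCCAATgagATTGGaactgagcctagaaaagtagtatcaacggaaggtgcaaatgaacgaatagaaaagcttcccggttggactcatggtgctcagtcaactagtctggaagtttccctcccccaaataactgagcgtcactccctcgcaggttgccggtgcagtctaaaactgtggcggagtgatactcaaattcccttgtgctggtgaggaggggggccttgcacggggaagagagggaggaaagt
The stretch between COL4A1 and COL4A2 held 1 GC box and 1 CCAAT box, that before COL4A3 held 2 GC boxes, and that before COL4A5 held 2 CCAAT boxes. No marked motif overlapped another, and a TATA box (TATAAA on either strand) was in none of the 3. Of all 35116 promoter windows in the table, 34.6% held a GC box and 21.1% a CCAAT box in the last 126 bases before the start, and 42.6% and 32% in the last 250. A TATA box was in 5.87% and 10.7% of them. The GC content was 80.2%, 66.4% and 51.2%, in the order shown.

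The deposited values are array signals on a linear scale, scaled by the submitters so that each array's trimmed mean was 500, and all values below are their log2. Over all 54675 probe sets the median of the mean log2 signal was 4.78, and 42 of the 80 genes (52.5%) lay above it, against 62.7% of all genes. "Above the median probe set" is used below for those 42 and "dim" for the other 38. The pooled standard deviation between arrays of a group had a median of 0.49 for the 42 and 1.23 for the dim genes, against 0.39 and 1.28 over all genes of each kind. The lung epithelial list had 9 of 10 genes above the median probe set, KRT18, KRT8 and EPCAM among them at means of 13.80, 12.57 and 9.34, while NAPSA was at 4.17. Of the fibroblast list 2 of 7 genes lay above it, ACTA2 at 6.37 and PDGFRA at 4.89, while DCN, LUM and POSTN were at 2.31, 1.60 and 1.63. Of the leukocyte list 2 of 4 measured genes did, CD14 at 6.63 and LCP1 at 6.10, while PTPRC was at 1.77 and CD3E at -0.44. Of the endothelial list 1 of 4 did, PECAM1 at 4.87, and CDH5, VWF and KDR were at 1.82, 1.63 and 1.35. On 2 arrays, reference chamber replicate 3 at 0 ppm and replicate 1 at 0.1 ppm, the control probe set for the 5′ end of actin mRNA stood at 6.85 and 5.90, against 7.75 to 9.70 on the other 16 arrays. These 2 arrays enter every comparison that uses the reference chamber at 0 or 0.1 ppm, and each call of the 80 genes between chambers at these concentrations is given with and without them. In RNA from whole cultures, fewer cells of a kind and less RNA per cell cannot be told apart.

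Of the network collagens, COL4A1 had the smallest spread within groups (pooled SD 0.22). Its log2 signals were 8.56, 9.0 and 9.32 in the reference chamber at 0 ppm and 9.18, 8.68 and 9.18 in the exposure chamber. At 0.1 ppm they were 9.32, 9.20 and 9.11 in the reference and 8.95, 9.19 and 9.04 in the exposure chamber, and at 0.5 ppm 8.61, 8.68 and 8.86 in the reference and 8.60, 8.77 and 8.63 in the exposure chamber. Reference and exposure groups overlapped at each concentration, and both chambers at 0.5 ppm lay low in the whole range. COL4A2, its partner in the commonest type IV trimer, spanned more: 7.87, 9.06 and 10.44 in the reference chamber at 0 ppm, and 8.59, 8.65 and 8.70 in the exposure chamber there. The value of 10.44 belongs to one of the 2 arrays of low actin signal, and the other, reference replicate 1 at 0.1 ppm, had 9.71 where the other 5 arrays of 0.1 ppm had 8.34 to 8.89. At 0.5 ppm COL4A2 had 7.96, 8.54 and 8.43 in the reference and 8.26, 8.53 and 8.16 in the exposure chamber, which overlap.

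The laminin chains of the alpha 5, beta 1, gamma 1 trimer were all above the median probe set, with means of 9.89 (LAMA5), 12.43 (LAMB1) and 10.72 (LAMC1) over 18 arrays. Their group means spanned 0.48, 0.09 and 0.94 log2 units, and the pooled standard deviations within groups were 0.41, 0.36 and 0.57. LAMB1 therefore differed less between the 6 group means than between arrays of a group. LAMB3, the beta chain of the laminin that anchors epithelia through hemidesmosomes, had the widest span of group means among the laminin chains above the median probe set, 1.42, and is described with its comparisons below. Fibronectin, the RGD-bearing glycoprotein of plasma and tissue matrix, ranged over 0.26 between group means and had a pooled standard deviation of 0.36.

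Of the integrin chains, ITGAV (alpha V) and ITGB5 (beta 5), which pair in a receptor for vitronectin, spanned 0.19 and 0.25 between group means, and ITGB1, the shared beta chain of most matrix receptors, 0.44. ITGA3 and ITGA6, the alpha chains of laminin receptors, spanned 0.65 and 0.55, ITGB4, the partner of alpha 6 in hemidesmosomes, 0.60, and ITGA5, the alpha chain of the fibronectin receptor, 0.59. The pooled standard deviations of these 7 chains lay between 0.18 (ITGAV) and 0.72 (ITGA6). Chains known from leukocytes were also represented: ITGAE, ITGB2, ITGAM, ITGAX and ITGAL lay above the median probe set at means of 11.90, 9.20, 6.80, 6.17 and 5.27, as did 2 of the 4 measured leukocyte markers, CD14 and LCP1, while PTPRC and CD3E lay below it.

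**Figure D1:**
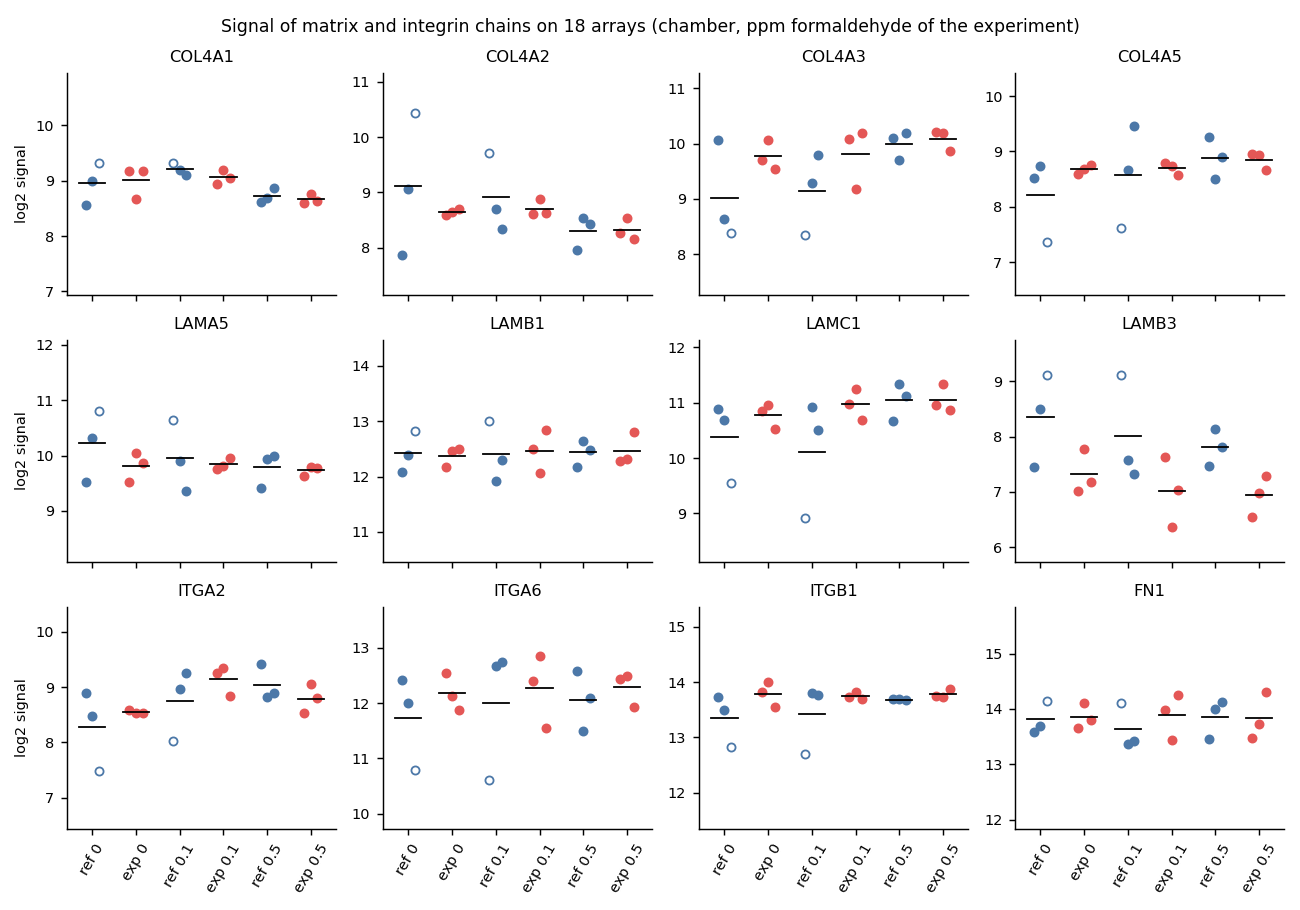
Log2 signal of 12 chains on each array (points; 3 arrays a group, horizontal bars are group means) for the reference (blue) and exposure (red) chambers at 0, 0.1 and 0.5 ppm, with a vertical span of 4 log2 units in every panel. Open points are the 2 arrays of low 5′ actin signal, which lie at the edge of the range for most of the chains, high for COL4A2, LAMA5 and LAMB3 and low for LAMC1, ITGA6 and ITGB1.

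Among genes above the median probe set, 2 arrays stood apart from the rest of their groups. On both arrays of low 5′ actin signal, 22 of the 42 genes lay outside the range of all 16 other arrays, 14 above and 8 below it, and so did 49.1% of all genes above the median probe set. Over all 80 genes it was 26 (32.5%, against 32.8% of all genes), so the share was near that of the array as a whole. The widest shift of the 22 was that of ITGAL, the alpha chain of a lymphocyte integrin, by 2.16. The direction divided chains that assemble together. LAMC1 had 9.54 and 8.91 on the 2 arrays and a mean of 10.91 on the other 16, a difference of -1.68, while LAMB2, LAMB3 and LAMA5 differed by 1.80, 1.73 and 0.94 the other way. ITGA6 and ITGB1 differed by -1.57 and -0.97, and ITGB4, the other partner of ITGA6, by 0.75. Among type IV collagens the chromosome 13 pair was high, COL4A2 by 1.58 and COL4A1 by 0.43, and COL4A3, COL4A4 and COL4A5 were low by -1.44, -0.55 and -1.31, with COL4A6 at -0.45 and not outside the range. COL7A1, the anchoring fibril collagen, and COL18A1, the source of endostatin, differed by 1.37 and 1.31, COL5A2, a fibrillar chain, by -1.36, ITGA5 by 1.35 and ITGA2 by -1.13.

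Second probe sets of the same genes did not always follow. Of the 22 genes, 10 had 13 further probe sets above the median signal, of which 4 lay outside the range on the same side, 1 on the opposite side and 8 inside it. The opposite one was for LAMC1, where the second probe set (200770_s_at) was higher by 0.92 on the 2 arrays while the brightest (200771_at) was lower. COL4A4, ITGB1, COL7A1 and COL18A1 each had a second probe set on the same side, at -1.62, -2.16, 1.90 and 1.41. The part of RNA quality in the comparisons below was not tested, and each call of the 80 genes between chambers at 0 or 0.1 ppm is given without these arrays too.

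**Figure D2:**
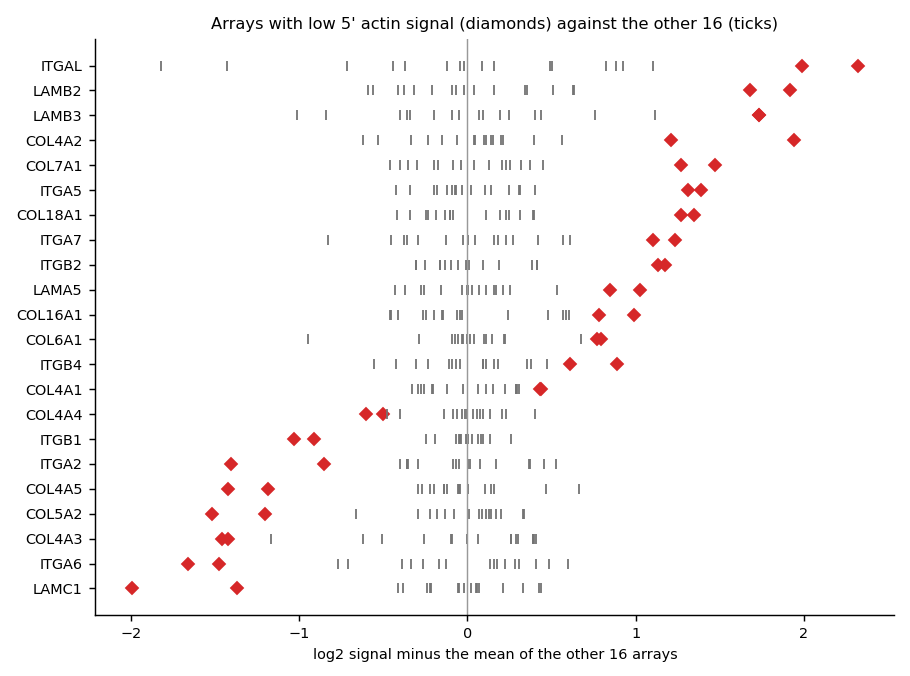
Log2 signal minus the mean of the other 16 arrays (horizontal axis) for the 22 genes above the median probe set whose signal on both arrays of low 5′ actin signal (red diamonds) lay outside the other 16 arrays (grey ticks). LAMB2, LAMB3, COL4A2 and ITGA5 lie to the right and LAMC1, ITGA6, COL4A3 and ITGB1 to the left.

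Each comparison was tested with limma over all probe sets, and called at an unadjusted p under 0.05, the cutoff of the study's methods. For each concentration the study also required a transcript to pass against both controls, and not to pass between chambers at 0 ppm. That combined rule was not applied here, so the counts are per comparison. Between exposure and reference chamber at 0 ppm, which asks for an effect of the chamber alone, 3 of the 80 genes passed (3.75%, against 3.69% of all genes). At 0.1 ppm 5 did (6.25%, against 2.99%) and at 0.5 ppm 3 (3.75%, against 3.05%). Within the exposure chamber, 4 passed at 0.1 against 0 ppm (5%, against 3.55%) and 3 at 0.5 against 0 ppm (3.75%, against 3.60%). After Benjamini-Hochberg adjustment over all probe sets, limma called 0 of the 80 in any of these 5 comparisons, and also 0 of all probe sets. The lowest adjusted p of limma among the 80 were 0.585, 0.998, 0.485, 0.592 and 0.232 in that order. Without the arrays of low actin signal the counts of limma at the unadjusted threshold were 4 at 0 ppm, with 2 of the original 3 among them, and 6 at 0.1 ppm, with 4 of the original 5. The added calls were COL14A1 and ITGA9-AS1 at 0 ppm and COL8A1 and COL9A2 at 0.1 ppm.

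The 18 calls fell on 14 genes, 11 called once, COL1A2 and LAMA4 2 times and ITGA8 3 times, and 66 of the 80 had none. All but LAMB3 at 0.5 ppm and ITGA2 at 0.1 against 0 ppm were in dim genes. Dim genes were called more often over the array as a whole too: by comparison, limma called 0.629%, 0.282%, 0.444%, 0.993% and 0.839% of genes above the median probe set and 8.83%, 7.54%, 7.44%, 7.86% and 8.24% of the others. The median log2 fold change of the 80 was -0.10, -0.15, -0.06, -0.03 and -0.10, beside -0.10, -0.09, -0.04, -0.04 and -0.04 over all genes. For the 42 genes above the median probe set the 95% interval of a fold change had a median half-width of 0.95, 1.14, 0.74, 0.75 and 0.69 log2 units, and for dim genes it was 1.80, 2.06, 2.20, 1.82 and 2.05. Genes with a smaller spread between arrays had narrower intervals. ITGA2 and several dim genes were thus called at a fold change below the median half-width for genes of their kind.

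**Figure D3:**
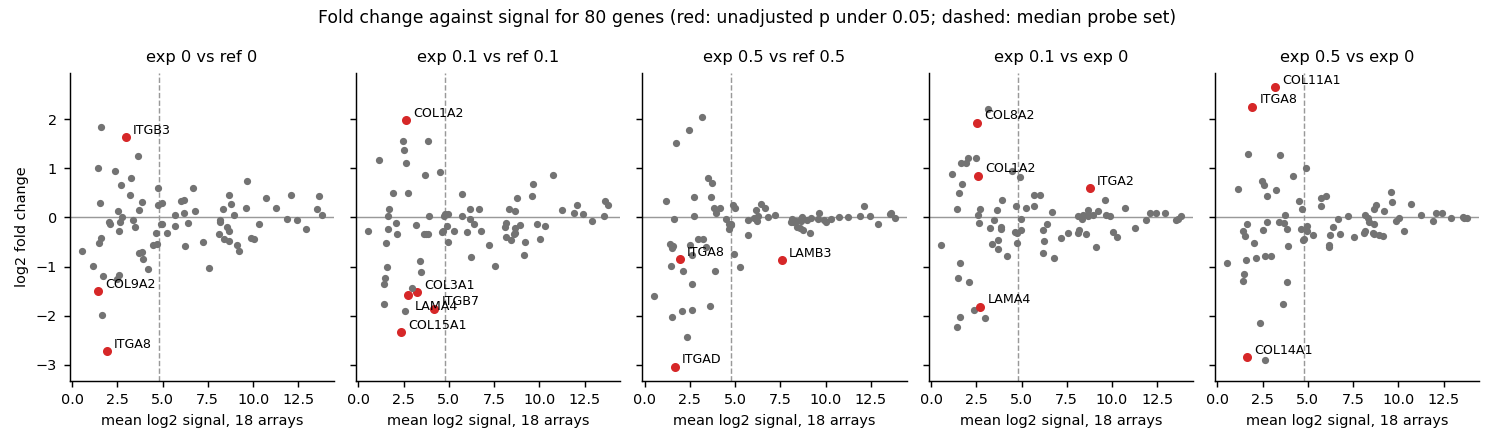
Log2 fold change (vertical axis) against mean log2 signal over 18 arrays (horizontal axis) for the 80 genes in 5 comparisons (exp, exposure chamber; ref, reference chamber; numbers are ppm), with genes at an unadjusted p under 0.05 in red and the median probe set as a dashed line. Of the 18 red points, 2 lie right of the line, LAMB3 at 0.5 ppm and ITGA2 at 0.1 against 0 ppm, and the spread narrows with signal.

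LAMB3 was lower in the exposure chamber than in the same-numbered reference culture, taken as the same experiment, in 9 of 9 experiments. In the exposure chamber it had 7.02, 7.78 and 7.18 at 0 ppm, against 7.45, 8.49 and 9.11 in the reference chamber. At 0.1 ppm it had 7.62, 6.37 and 7.04 against 9.11, 7.57 and 7.33, and at 0.5 ppm 6.54, 6.97 and 7.29 against 7.47, 8.13 and 7.81. The groups overlapped at 0 and 0.1 ppm and did not at 0.5 ppm, where the log2 fold change was -0.87 (SE 0.32, limma unadjusted p = 0.0355). At 0 and 0.1 ppm the fold changes were -1.03 (SE 0.50, limma unadjusted p = 0.0892) and -0.99 (SE 0.62, limma unadjusted p = 0.154), and without the arrays of low actin signal -0.64 (SE 0.46) and -0.44 (SE 0.47). The differences within experiments averaged -0.96 ± 0.54 (SD, n = 9), and -0.75 ± 0.36 (SD, n = 7) without the 2 experiments that hold an array of low actin signal.

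Since LAMB3 was lower in the 3 experiments without formaldehyde too, the chamber difference itself was compared between concentrations. It was 0.03 (95% interval -1.80 to 1.86) less negative at 0.1 than at 0 ppm and 0.15 (95% interval -1.20 to 1.51) at 0.5 than at 0 ppm. Against the exposure chamber at 0 ppm, the exposure chamber at 0.1 and 0.5 ppm gave -0.32 (SE 0.41) and -0.39 (SE 0.33), with overlapping values. Of the 80 genes, 2 were lower in all 9 experiments and 0 higher (2.5%), and 2.34% of all genes moved one way in all 9, a share near that of the 80. The other was ITGA9-AS1, a dim signal, with a mean difference of -1.48 ± 1.62 (SD, n = 9). The 5′ actin control on the 6 arrays of 0.5 ppm ran from 7.82 to 8.76. The call for LAMB3 at 0.5 ppm was lost when exposure replicate 1 or 2 or reference replicate 2 or 3 was left out, where limma's p reached 0.113 at a fold change of -0.68.

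LAMB2, the beta chain of laminins in vessels and alveolar walls, was lower in the exposure chamber in 6 of 9 experiments, by -0.55 ± 0.86 (SD, n = 9) on average and -0.18 ± 0.50 (SD, n = 7) without the 2 experiments. LAMC1 had its only log2 differences above 0.5 in those 2 experiments. Its fold changes were 0.41 (SE 0.43) at 0 ppm, 0.86 (SE 0.59) at 0.1 ppm and 0.01 (SE 0.29) at 0.5 ppm. For LAMA5 they were -0.42 (SE 0.41), -0.12 (SE 0.44) and -0.05 (SE 0.26), and for LAMB1 -0.05 (SE 0.31), 0.06 (SE 0.44) and 0.03 (SE 0.27). Without the arrays of low actin signal the fold changes at 0 and 0.1 ppm were -0.01 (SE 0.27) and 0.26 (SE 0.34) for LAMC1, -0.12 (SE 0.37) and 0.21 (SE 0.32) for LAMA5, and 0.15 (SE 0.26) and 0.36 (SE 0.37) for LAMB1. None of these 3 chains passed the threshold in any of the 5 comparisons. For LAMB1 at 0.5 against 0 ppm in the exposure chamber, the interval of -0.53 to 0.71 bounds the change that these arrays allow.

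**Figure D4:**
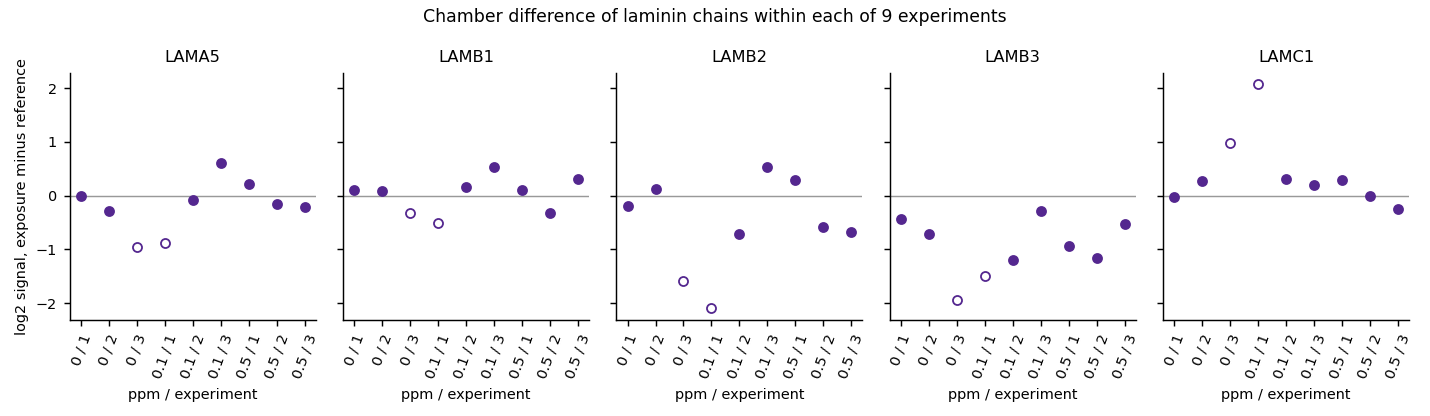
Log2 signal in the exposure minus that in the reference chamber (vertical axis) in each of 9 experiments (horizontal axis: ppm and experiment) for 5 laminin chains. All 9 points of LAMB3 lie below 0. The open points are from the 2 experiments with an array of low 5′ actin signal. They are the lowest for LAMA5, LAMB1, LAMB2 and LAMB3 and the highest for LAMC1.

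ITGA2, the alpha 2 chain of the collagen receptor alpha 2 beta 1, was the other call above the median probe set. In the exposure chamber it had 8.59, 8.53 and 8.53 at 0 ppm and 9.25, 9.34 and 8.83 at 0.1 ppm, without overlap. The log2 fold change was 0.59 (SE 0.24, 95% interval 0.00 to 1.18, limma unadjusted p = 0.0493). At 0.5 ppm the exposure chamber had 8.53, 9.06 and 8.80, which overlapped the 0 ppm values, with a fold change of 0.24 (SE 0.23). The reference chamber at 0.1 ppm had 8.03, 8.96 and 9.26, so the exposure chamber overlapped its own reference, with a fold change of 0.39 (SE 0.45), and 0.03 (SE 0.33) without the array of low actin signal. Leaving out any 1 of 5 arrays of this comparison ended the call, and the highest p of limma was 0.126. The second ITGA2 probe set (205032_at) passed the threshold at 0.5 against 0 ppm instead, with 0.89 (SE 0.35).

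Of the chains that pair with ITGA2 and with each other, ITGB1 had fold changes within ±0.10 in the 3 comparisons that hold no array of low actin signal, and its intervals there lay between -0.60 and 0.62. In the same 3 comparisons ITGAV and ITGB5 lay between -0.13 and 0.09, ITGA6 between 0.09 and 0.23 and FN1 between -0.02 and 0.04. ITGA3 had -0.09 (SE 0.33), 0.02 (SE 0.33) and -0.32 (SE 0.33), and ITGA5 had -0.18 (SE 0.31), 0.05 (SE 0.23) and -0.08 (SE 0.27), for 0.5 ppm against its reference and for 0.1 and 0.5 against 0 ppm. ITGB4 had -0.07 (SE 0.26), 0.15 (SE 0.30) and -0.14 (SE 0.30). None of these 7 integrin chains or FN1 passed the threshold at its brightest probe set in any of the 5 comparisons. A dimmer ITGB1 probe set (216178_x_at) was higher at 0.5 ppm than in its reference by 1.31 (SE 0.44) and passed.

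**Figure D5:**
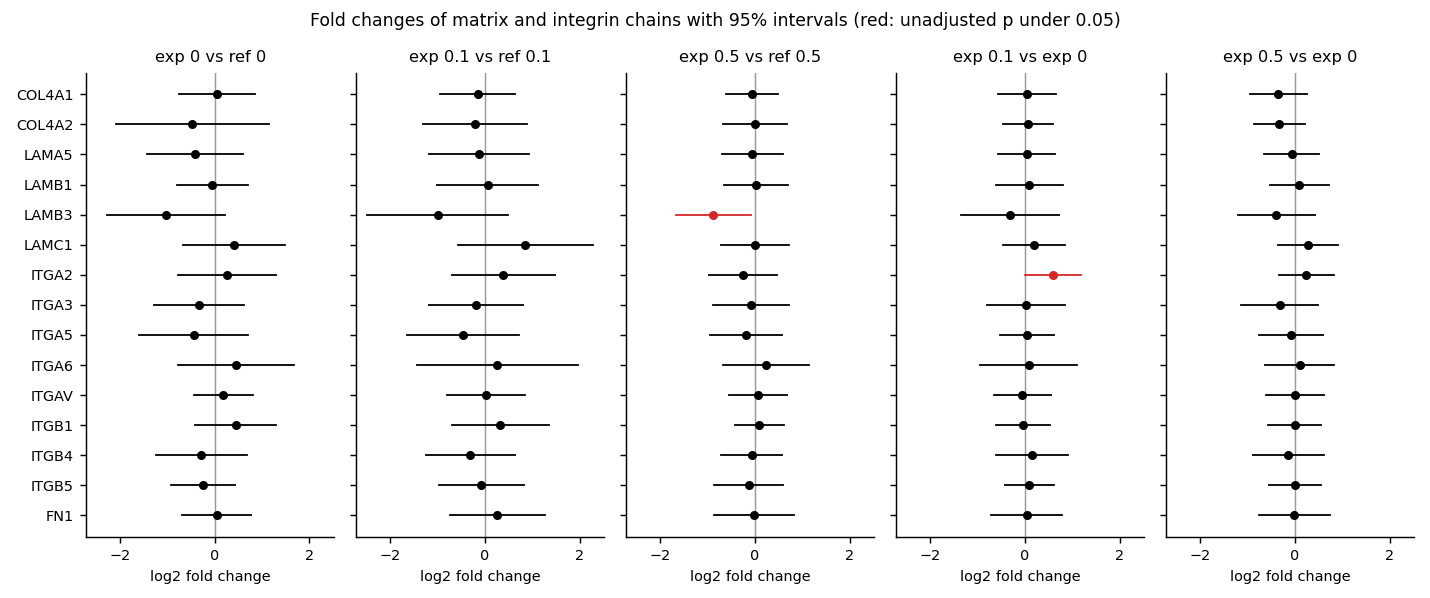
Log2 fold change (points) with its 95% interval (lines) for 15 chains in 5 comparisons (exp, exposure chamber; ref, reference chamber; numbers are ppm), with an unadjusted p under 0.05 in red. LAMB3 at 0.5 ppm and ITGA2 at 0.1 against 0 ppm are the red points, and the intervals are wider in the first 2 comparisons, which hold the arrays of low 5′ actin signal.

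In the type IV collagens, no chain passed the threshold at its brightest probe set in any comparison. Between chambers, dimmer probe sets of COL4A3 passed at 0 ppm (216896_at, -2.01) and at 0.5 ppm (216367_at, 0.81). One of COL4A6 passed at 0.5 ppm (211473_s_at, 1.38). COL4A1 and COL4A2 were both lower in the exposure chamber at 0.5 than at 0 ppm, by -0.35 (SE 0.24) and -0.33 (SE 0.21). COL4A2 did not overlap there, with 8.26, 8.53 and 8.16 against 8.59, 8.65 and 8.70, and COL4A1 did. The partners of a head-to-head pair changed in the same direction between chambers in 5 of 9 experiments for COL4A1 and COL4A2, in 6 for COL4A3 and COL4A4 and in 5 for COL4A5 and COL4A6. ITGA6 and ITGB1 did so in 7 of 9 and ITGA6 and ITGB4 in 2. Those were the highest and the lowest count of all pairs examined, and the others lay between 3 and 6. The counts include the 2 experiments with an array of low actin signal. In these ITGA6 differed by 1.09 and 1.80, ITGB1 by 0.72 and 1.03 and ITGB4 by -1.17 and -0.80. The partners of each head-to-head pair also had the same sign in both. Pairs of unrelated genes were not counted for comparison.

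Among the fibrillar collagens all called chains were dim. COL1A2, the alpha 2 chain of type I collagen, had 3.51, 3.51 and 3.78 in the exposure chamber at 0.1 ppm, against 3.22, 0.68 and 0.96 in its reference chamber and 3.12, 2.23 and 2.91 in the exposure chamber at 0 ppm. It was higher than both, by 1.98 (SE 0.71, limma unadjusted p = 0.030) and 0.85 (SE 0.31, limma unadjusted p = 0.0360). Without the array of low actin signal, COL1A2 was higher than its reference by 2.78 (limma unadjusted p = 0.000303). The 2 comparisons share their exposed samples, and a further COL1A2 probe set (229218_at) was lower by -2.26 (SE 0.83) at 0.1 ppm against the reference. Its type I partner COL1A1 lay above the median probe set and spanned 0.38 between group means, without a call. A dimmer COL1A1 probe set (202311_s_at) passed at 0 ppm, higher in the exposure chamber by 1.075 (SE 0.38).

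COL3A1, the chain of type III collagen, had 2.50, 3.27 and 2.34 in the exposure chamber at 0.1 ppm and 3.93, 4.03 and 4.72 in its reference chamber. It was lower by -1.53 (SE 0.44, limma unadjusted p = 0.0115), without overlap, and by -1.67 without the array of low actin signal (limma unadjusted p = 0.0145). With all COL3A1 probe sets averaged the difference was -0.91 and lost the call (limma unadjusted p = 0.163). The reference chamber itself differed between concentrations: at 0 ppm it had 0.61, 3.22 and 2.54 and at 0.5 ppm 3.73, 3.55 and 4.52. COL3A1 was thus higher in the reference chamber at 0.1 than at 0 ppm, by 2.11 (SE 0.73), where no formaldehyde was given.

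COL11A1, a fibrillar chain of cartilage, had 3.64, 5.31 and 4.85 in the exposure chamber at 0.5 ppm and 0.62, 2.94 and 2.28 at 0 ppm, higher by 2.65 (SE 0.74, limma unadjusted p = 0.0131). A second probe set (204320_at) moved the same way, by 1.11 (SE 0.41). In the reference chambers COL11A1 had -1.02, 3.39 and 5.27 at 0.5 ppm and -0.16, 0.68 and 3.92 at 0 ppm, so the arrays of each of these reference groups lay further apart than the change.

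Of the network-forming and fibril-associated collagens, 4 were called, all dim. COL8A2, a chain of the type VIII network under endothelia, had 3.67, 4.23 and 4.25 in the exposure chamber at 0.1 ppm and 2.75, 0.92 and 2.69 at 0 ppm, higher by 1.93 (SE 0.57, limma unadjusted p = 0.0159). Its other probe set (221900_at) was at -0.58 (SE 1.32) there, and with both averaged the change was 0.68 (limma unadjusted p = 0.318). Against its own reference at 0.1 ppm COL8A2 differed by 1.37 (SE 0.60) and did not pass. COL15A1, a basement membrane collagen related to COL18A1, had 3.18, 1.13 and -0.79 in the exposure chamber at 0.1 ppm and 3.36, 3.43 and 3.73 in the reference, lower by -2.33 (SE 0.96, limma unadjusted p = 0.0491). With the experiment as a replicate block, the COL15A1 call was lost (limma unadjusted p = 0.0627), as it was without the array of low actin signal (-2.41, limma unadjusted p = 0.104). Without exposure replicate 3 it was -1.35 (limma unadjusted p = 0.106). COL9A2, a chain of cartilage type IX collagen, had 0.82, 0.64 and 1.01 in the exposure and 2.89, 2.05 and 2.02 in the reference chamber at 0 ppm. It was lower by -1.50 (SE 0.35, limma unadjusted p = 0.00509), and by -1.65 without the array of low actin signal (limma unadjusted p = 0.00708). At 0.1 ppm COL9A2 differed by -1.35 (SE 0.63, limma unadjusted p = 0.0713), and without the array of low actin signal by -1.97 (SE 0.41, limma unadjusted p = 0.00534). Over all concentrations it was higher in the exposure chamber in 1 of 9 experiments, with a mean difference of -1.28 ± 1.29 (SD, n = 9).

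COL14A1, a fibril-associated collagen, had the lowest adjusted p of the 80 genes. Its signals in the exposure chamber were 0.81, 0.94 and 0.36 at 0.5 ppm and 3.58, 3.38 and 3.70 at 0 ppm. It was lower by -2.85 (SE 0.25, limma unadjusted p = 4.7e-05, adjusted p = 0.232). The reference chamber had 1.03, -0.33 and 1.49 at 0.5 ppm, which overlapped the exposure chamber there, and 0.84, 0.59 and 3.71 at 0 ppm. This probe set, the brightest of 4, did not pass the threshold against its own reference at 0.5 ppm or at 0 ppm, where the difference was 1.84 (SE 0.86). The value of 3.71 is from the array of low actin signal, and without it the exposure chamber at 0 ppm was higher by 2.83 (SE 0.26, limma unadjusted p = 0.000179). Another COL14A1 probe set (228750_at) was lower there instead, by -3.13 (SE 0.59, limma unadjusted p = 0.00188, all arrays). With all probe sets averaged the change at 0.5 against 0 ppm was -0.59 (limma unadjusted p = 0.373).

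In the RGD-binding integrin group, ITGA8, the alpha 8 chain of mesenchymal cells and smooth muscle, was called 3 times. It had 1.53, -0.41 and -0.24 in the exposure chamber at 0 ppm, against 2.57, 3.34 and 3.15 in the reference chamber and 2.35, 2.69 and 2.59 in the exposure chamber at 0.5 ppm. It was lower than the reference by -2.73 (SE 0.60, limma unadjusted p = 0.00399), or by -2.66 without the array of low actin signal (limma unadjusted p = 0.0170). The exposure chamber at 0.5 ppm was higher than that at 0 ppm by 2.25 (SE 0.56, limma unadjusted p = 0.00819). Both of these comparisons use the same low exposure arrays at 0 ppm. Against its own reference chamber at 0.5 ppm, with 3.50, 3.72 and 2.98, ITGA8 was lower by -0.85 (SE 0.29, limma unadjusted p = 0.0269). At 0.5 against 0 ppm, 2 other ITGA8 probe sets (235666_at and 239092_at) were higher as well, by 2.89 (SE 0.93) and 3.30 (SE 0.84), and the last (242071_x_at) was at -0.05 (SE 0.37). Against the reference at 0.5 ppm, 239092_at was at 2.08 (SE 0.98), and with all ITGA8 probe sets averaged the difference was 0.25 (limma unadjusted p = 0.442). At 0 ppm the averaged difference was -1.22 and lost the call (limma unadjusted p = 0.136).

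ITGB3, the beta chain shared by the alpha V beta 3 and platelet receptors, had 3.77, 3.71 and 4.12 in the exposure and 1.40, 3.55 and 1.76 in the reference chamber at 0 ppm. The difference of 1.63 (SE 0.61, limma unadjusted p = 0.0368) was lost in limma with the experiment as a replicate block (unadjusted p = 0.0552), and without the array of low actin signal (1.39, unadjusted p = 0.109). With all ITGB3 probe sets averaged it was -0.24.

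Of the leukocyte integrin chains, ITGAD, the alpha D chain of macrophages, and ITGB7, the beta chain of gut-homing lymphocytes, were called once each. ITGAD had 0.56, 0.85 and -0.46 in the exposure and 3.15, 3.79 and 3.12 in the reference chamber at 0.5 ppm, lower by -3.03 (SE 0.43, limma unadjusted p = 0.00053). At 0 ppm it had -0.47, 0.88 and 0.98 in the exposure and 0.72, 2.48 and 4.11 in the reference chamber, which overlap. ITGB7 had 3.09, 2.57 and 3.12 in the exposure and 5.67, 3.94 and 4.75 in the reference chamber at 0.1 ppm, lower by -1.86 (SE 0.53, limma unadjusted p = 0.0110). Without the array of low actin signal, ITGB7 was lower by -1.42 (limma unadjusted p = 0.0188). Each of the 2 has 1 probe set.

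LAMA4, the laminin alpha chain of endothelium and muscle, was low in the exposure chamber at 0.1 ppm, with 0.92, 1.56 and 1.67. The reference chamber there had 1.80, 3.81 and 3.28, and the exposure chamber at 0 ppm 3.26, 3.61 and 2.74, neither of which overlaps it. The differences were -1.58 (SE 0.60, limma unadjusted p = 0.0362) and -1.82 (SE 0.35, limma unadjusted p = 0.00243), and they share the exposed arrays. Without the array of low actin signal the first was -2.16 (limma unadjusted p = 0.00313). A second LAMA4 probe set (210089_s_at) went the other way against 0 ppm, by 1.94 (SE 0.76), and with all probe sets averaged the differences were 0.18 and 0.43.

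Across the 135 other probe sets of these genes, limma's unadjusted threshold was passed by 11, 6, 6, 8 and 8 in the 5 comparisons (8.15%, 4.44%, 4.44%, 5.93% and 5.93%). Over all 21322 probe sets of 1 symbol other than the brightest of a gene it was passed by 4.70%, 3.90%, 3.86%, 4.44% and 4.39%. None of them was for a called gene in the called direction in the first 4 comparisons, and 3 were at 0.5 against 0 ppm, the COL11A1 and ITGA8 probe sets given above. With 32 signal units added before the logarithm, all 16 dim calls shrank by more than 1.5 times, for example COL14A1 from -2.85 to -0.38 and ITGAD from -3.03 to -0.35, while LAMB3 went from -0.87 to -0.73 and ITGA2 from 0.59 to 0.55. An offset near the median signal of an array shrinks changes at low signal most by construction, so this contrast is no test of the calls.

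Whether the chamber difference changed with formaldehyde was tested directly. At 0.1 against 0 ppm, 6 of the 80 genes passed the unadjusted threshold of limma (7.5%, against 2.49% of all genes), and at 0.5 against 0 ppm 2 did (2.5%, against 2.88%). None passed after adjustment, and all were dim. With the experiment as a replicate block, limma called 3, all among those 6, and 1, which was not among those 2. It called, without the arrays of low actin signal, 4 and 2 genes, of which 3 and 1 were among the original calls. The genes were COL3A1, ITGB3 and LAMA4, whose chamber differences were more negative at 0.1 ppm, and COL8A1, ITGA8 and LAMA1, whose were more positive. COL8A1 and ITGA8 were the 2 at 0.5 ppm.

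The reference chambers, which received no formaldehyde, were compared as a background. At 0.1 against 0 ppm 2 genes passed the unadjusted threshold of limma (2.5%, against 2.70% of all genes), COL11A1 by 2.82 (SE 1.16) and COL3A1 by 2.11 (SE 0.73). At 0.5 against 0 ppm 5 passed (6.25%, against 3.61%): COL3A1 by 1.81, COL5A3 by -1.13, COL8A1 by -2.28, ITGA2B by -1.39 and ITGA7 by -0.95. ITGA7, a laminin-binding alpha chain of muscle, was the 1 above the median probe set, with 6.28, 5.64 and 5.80 at 0.5 ppm and 6.67, 6.71 and 7.20 at 0 ppm. Without the arrays of low actin signal 3 genes passed in each of the 2 comparisons, of which 1 and 0 were among the original calls. The 2 comparisons between reference chambers thus gave 2 and 5 calls, and the 5 comparisons above gave between 3 and 5. Of those 5, that between chambers at 0 ppm, with 3 calls, held no formaldehyde either.

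The genes that process, bind or link these chains, 73 measured in 4 lists, were fitted in the same way. At the unadjusted threshold of limma 3, 1, 2, 3 and 1 of them passed in the 5 comparisons (4.11%, 1.37%, 2.74%, 4.11% and 1.37%), beside 3.69%, 2.99%, 3.05%, 3.55% and 3.60% of all genes. Their median log2 fold changes were -0.16, -0.10, -0.04, -0.03 and -0.03. Lists of 21 collagen-processing enzymes and chaperones and of 25 focal adhesion linkers held no call, where at the share over all genes at most about 1 would fall in each comparison. Of 18 other matrix glycoproteins, FBN1, the main microfibril protein, was lower in the exposure chamber at 0 ppm by -0.95 (SE 0.25), and EFEMP1, a fibulin, was lower at 0.5 against 0 ppm by -0.70 (SE 0.25). CCN2, a matrix-associated growth regulator, was higher at 0.1 against 0 ppm by 0.82 (SE 0.33). Among 9 other matrix receptors BCAM, a receptor for laminin alpha 5, was lower in the exposure chamber at 0 ppm by -0.91 (SE 0.34). BCAM was also lower in the reference chamber at 0.5 than at 0 ppm, by -1.05 (SE 0.38). The genes of these lists were not refitted without the arrays of low actin signal. The dim genes FBLN2, NID1, SPARC and ELN made up the other calls, with FBLN2 at 1.64 at 0 ppm, -1.96 at 0.1 ppm and -1.74 at 0.1 against 0 ppm.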

How the data were processed

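RNA of 18 cultures was hybridised to Affymetrix HG-U133 Plus 2.0 arrays, which read expression by short probes near the 3′ end of each transcript, after 3′ amplification. The authors computed 1 signal intensity per probe set by MAS5, named in the submitters' processing notes without a version, and scaled each array to a trimmed mean of 500, as the deposited values show. The deposited intensities are linear, and no detection calls were used here. The number of arrays, 3 a group, limits the precision. Adjusted and unadjusted p-values came from limma 3.58.1 (lmFit and eBayes, R 4.3.3) on log2 intensities of all 54675 probe sets. The fit held the 2 groups of a comparison (4 groups for a difference of chamber differences). Benjamini-Hochberg adjustment was over all 54675 probe sets. The unadjusted threshold was 0.05, as in the study's methods. No filter and no pseudocount were applied.

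Probe sets were named from the platform annotation, and probe sets of several symbols named no gene. The genes, the role, marker and partner lists and the rule for named genes were chosen with earlier results of these data known. That rule names every gene past the threshold in at least 1 of the 5 comparisons, the assembling chains of the type IV collagen, laminin and integrin groups, and FN1, and gives other genes by counts. It was extended to the other type IV chains and to LAMB2 and ITGA9-AS1 after their values were seen. The paper cultivated both chambers of an experiment in parallel. Same-numbered cultures of both chambers were taken as 1 experiment, which the labels do not state. The deviations from group means of such pairs correlated between -0.02 and 0.12 over all probe sets and between 0.01 and 0.49 over probe sets above the median signal. Fits with the experiment as a replicate block were an alternative, beside other normalization, offset, filter, variance model, probe set rule and left-out arrays. The scripts were tested on simulated data.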

Additional observations from a re-analysis of the deposited data

Results flagged for a closer look

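The chamber difference (exposure minus reference, log2) differed between concentrations for 8 pairs of a gene and a concentration at an unadjusted p under 0.05 in limma, and for none after adjustment over all probe sets. At 0.1 against 0 ppm the change was -2.33 (SE 0.83) for COL3A1, 2.81 (SE 1.16) for COL8A1, 3.23 (SE 1.43) for ITGA8, -3.06 (SE 1.19) for ITGB3, 2.17 (SE 0.89) for LAMA1 and -2.23 (SE 0.88) for LAMA4. At 0.5 against 0 ppm it was 3.02 (SE 1.19) for COL8A1 and 1.87 (SE 0.68) for ITGA8. All 6 genes lay below the median probe set. For COL8A1 the exposure chamber had 2.60, 3.10 and 0.75 at 0 ppm, 3.79, 2.49 and 3.81 at 0.1 ppm and 3.08, 2.15 and 3.47 at 0.5 ppm. Its reference chamber had 3.21, 3.36 and 3.63 at 0 ppm, 3.36, 0.16 and 1.90 at 0.1 ppm and -0.73, 2.63 and 1.48 at 0.5 ppm, so the reference arrays moved with the difference too. With the experiment as a replicate block, COL3A1, COL8A1 and LAMA4 at 0.1 ppm passed the threshold and the other 5 pairs did not.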

How the results depend on the processing

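At an unadjusted p under 0.05 in limma, the counts of called genes among the 80 rested on few dim genes and moved with the processing, and the cause of each move was not tested unless the setting itself drops genes. For exposure against reference at 0 ppm the count of 3 became 1 when only probe sets above the median signal were fitted and 1 in a fit over all 6 groups, and leaving out 1 array gave 2 to 6. At 0.1 ppm the count of 5 became 3 with quantile normalization, with 32 added before the logarithm, with a variance trend, in the fit over all groups and with the mean over all probe sets of a gene, 0 with probe sets above the median only, and 3 to 6 without 1 array. At 0.5 ppm 3 became 1 with quantile normalization and 1 in the fit over all groups, and 2 to 6 without 1 array. In the exposure chamber at 0.1 against 0 ppm 4 became 1 above the median only and 2 in the fit over all groups, and 2 to 6 without 1 array. At 0.5 against 0 ppm 3 became 5 with 32 added, 5 with the trend and 6 with the mean over probe sets, and 3 to 5 without 1 array. For the change of the chamber difference at 0.1 ppm 6 became 3 with 32 added, 3 with the trend, 3 with the replicate block, 0 above the median only and 0 with the mean over probe sets, and 2 to 5 without 1 array. At 0.5 ppm 2 became 0 above the median only, 1 with the trend, 1 in the fit over all groups and 1 with the replicate block, and 0 to 4 without 1 array. Between reference chambers, at 0.1 ppm 2 became 1 with 32 added and 0 above the median only, and 1 to 3 without 1 array. At 0.5 ppm 5 became 2 above the median only, 3 with the mean over probe sets and 3 without the array of low actin signal, and 1 to 6 without 1 array.

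Over 226 refits of the 18 calls, 222 kept the direction and 142 also the threshold. The other 4 reversed, all with the mean over all probe sets of a gene: ITGB3 at 0 ppm to -0.24, LAMA4 at 0.1 ppm to 0.18 and at 0.1 against 0 ppm to 0.43, and ITGA8 at 0.5 ppm to 0.25. Only ITGAD at 0.5 ppm and ITGB7 at 0.1 ppm passed the threshold in all refits that gave them a value, where limma's p reached at most 0.0226 and 0.0399. Each has 1 probe set, so averaging over probe sets could not change its fold change. Fitting only probe sets above the median left both out. Leaving out 1 array ended calls of 9 of the 18: ITGB3 at 0 ppm, COL15A1, COL1A2 and LAMA4 at 0.1 ppm (in 5 of 6 refits each), ITGA8 and LAMB3 at 0.5 ppm (in 4 each), and COL1A2 and ITGA2 (in 5 each) and COL8A2 (without exposure replicate 3) at 0.1 against 0 ppm. With the replicate block, calls changed for ITGB3 at 0 ppm and COL15A1 at 0.1 ppm, where same-numbered cultures were taken as 1 experiment. They also changed for COL1A2 and ITGA2 (limma unadjusted p = 0.0577 and unadjusted p = 0.0975) at 0.1 against 0 ppm, where replicates share only a number. In that comparison the block gave 5 calls instead of 4, and 3 in both fits at 0.5 against 0 ppm. Signals under the median probe set limit 38 of the 80 genes.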
